A study of Triticum aestivum with 24 samples.

Results

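The start of chromosome 1B lacked most of its summed expression in 2 of the 8 groups of wheat leaf libraries. These were labelled DEH2 well-watered and DREM drought, while the other 6 groups expressed the stretch. Its summed level in DEH2 well-watered was 9.73% of the median of the other well-watered groups. In DREM drought it was 10.7% of that of the other drought groups. The loss was partial, as some genes were only reduced and others kept their level. The stretch is taken here as the genes with identifiers from TraesCS1B02G000600 to TraesCS1B02G084700. Of 843 identifiers on 1B up to that number, 329 reached a normalized count of 10 in at least 3 of the 24 libraries and are described here, out of 60088 genes in the whole table that did so. A further 514 did not, of which 320 were at 0 in all 24 libraries. The end of the stretch was chosen from the low values themselves, so the loss is given as a description, with no test. At the threshold, 8 genes passed with exactly 3 libraries and 9 missed with exactly 2, and 1 gene needed a library of DEH2 well-watered or DREM drought to pass.

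Bread wheat is a hexaploid whose genome consists of the subgenomes A, B and D, so that most genes have a similar copy on each of the 3 chromosomes of a group, here 1A, 1B and 1D. The identifiers number the genes along a chromosome, and the low numbers of 1B lie on its short arm, which is known for loci of seed storage proteins (gliadins and glutenins) and for a nucleolus organizer, the site of ribosomal RNA genes. Storage proteins are made in the grain, not in leaves. None of the identifiers is paired with a gene name in the sources used here, so no function is given to any gene, and the labelled leaf tissue and the transgene could not be checked by their marker genes.

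The plants were the spring wheat line Fielder, labelled WT, and 3 lines transformed from it to express a wheat TOR gene. TOR (target of rapamycin), a kinase, ties growth to nutrients and energy. The construct of each line is named as its label (UBQ, DREM or DEH2) followed by TOR, and what drives the transgene is not spelled out. Each was sampled well-watered (80% field capacity) and under drought, 3 libraries per group. The groups are therefore DEH2 well-watered, DREM drought, DEH2 drought, DREM well-watered, UBQ drought, UBQ well-watered, WT drought and WT well-watered. Plants were grown for 4 weeks before water was withheld for 12 days, and the sources used here do not give the day of leaf sampling. The labels do not say whether the replicates of a group came from separate plants or how many transformants stand behind a line, so p-values measure the spread between these libraries, which may be technical.

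Estimated depth was 33700000 to 55300000 reads per library. The authors' scaling set 1 read at 0.651 to 1.54 normalized counts, so the 3 reads that a value of 0 can hide come to 1.95 to 4.63, depending on the library. This limit covers counting error only. The genotype labels do not hold the libraries together on another chromosome either: over 1939 genes of chromosome 2A, the median log2 deviation from the 4 groups of the same water regime was -0.70 in WT drought and -0.71 in UBQ well-watered, and 0.04 to 0.07 in the other 6 groups. One library of WT drought (replicate 1) had 29.0% of its sum in its 50 highest genes, against 12.6% in each of the other 2. The series' own design text also lists other genotype names, a re-watered treatment and more samples than the 24 labelled ones used here. Groups are named by their labels throughout, and whether a label matches the plant was not tested.

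Together the 329 genes held 0.0265% to 0.0269% of the normalized counts in the 3 libraries of DEH2 well-watered and 0.0293% to 0.0306% in those of DREM drought. In the 18 libraries of the other 6 groups they held 0.196% to 0.289%, the lowest being WT drought replicate 1. Both low groups were thus below every other library, with no overlap. The summed level was 9.73% of the median of the other well-watered groups in DEH2 well-watered and 10.7% of that of the other drought groups in DREM drought. A value of 10 or more was reached by 87 to 96 of the genes in DEH2 well-watered and by 84 to 96 in DREM drought, against 272 to 285 in the other libraries. In leaf RNA of this kind, fewer cells that express a gene and less of its RNA per cell cannot be told apart.

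**Figure D1:**
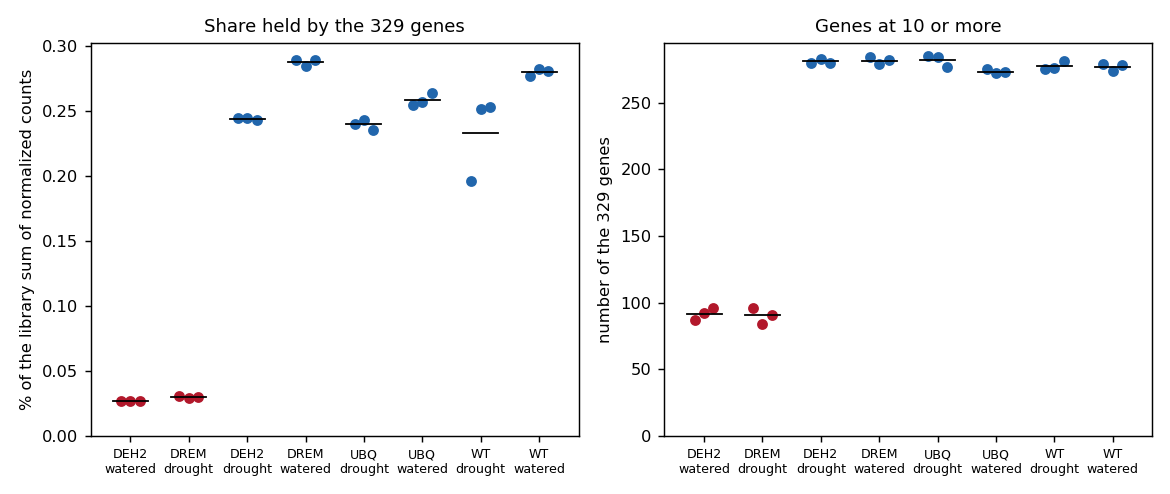
Share of the library sum held by the 329 genes in percent (left) and number of them at a normalized count of 10 or more (right), by group; each point is a library and each bar the mean of 3. The 6 libraries of DEH2 well-watered and DREM drought lie at 0.0265% to 0.0306% and at 84 to 96 genes, and all 18 others at 0.196% to 0.289% and at 272 to 285 genes.

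Each gene was classed by the ratio of its mean in the low group to the median of the 3 other group means of the same water regime: lost under 0.1, reduced from 0.1 to under 0.5, kept from 0.5 to 2, higher above 2, and not assessed where that median was under 10. In DEH2 well-watered 276 genes could be assessed, of which 189 (68.5%) were lost, 54 (19.6%) reduced and 33 (12%) kept, and none was higher. In DREM drought 285 could be assessed, of which 204 (71.6%) were lost, 46 (16.1%) reduced, 34 (11.9%) kept and 1 higher. Of all genes tested, the 329 included, 0.658% were lost, 1.98% reduced, 95.9% kept and 1.48% higher in DEH2 well-watered. The same shares of all genes in DREM drought were 0.864% lost, 5.93% reduced, 89.5% kept and 3.71% higher. Because the stretch was chosen on this difference, these shares describe it and are not support for it.

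The 2 low groups largely lost the same genes, although they differ in line and in water regime. Of 256 genes assessed in both, 228 (89.1%) were in the same class, with 170 lost in both, 33 reduced in both and 25 kept in both. The 170 were 89.9% of the genes lost in DEH2 well-watered and 83.3% of those lost in DREM drought. Across the 256 genes the log2 ratios of the 2 groups correlated at r = 0.912. This is a description across genes that share libraries and sequence copies, and the reference groups of the 2 ratios have no library in common. All 18 other libraries lay above all 6 low ones for 227 of the 329 genes, 166 of them among the 170. The same held for 427 (0.711%) of all genes tested, the 227 included.

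The genes lost in both ran from low to high expression in the other groups. Their mean level over the other 6 groups had a median of 157 normalized counts and ran from 12.8 to 8260, with 107 genes at 100 or more and 20 at 1000 or more. The highest was TraesCS1B02G075200, at 11.0, 11.3 and 2.88 normalized counts in DEH2 well-watered and 2.80, 0 and 0 in DREM drought. The 18 other libraries ran from 139.7 through a median of 4528 to 25972, and none overlapped with the low groups. The gene itself was also among those with the widest drought change, and its lowest value elsewhere was still far above the 6 low libraries. TraesCS1B02G017800 read 7.84, 9.81 and 9.97 in DEH2 well-watered and 53.9, 16.0 and 12.8 in DREM drought, against 3163 to 9918 elsewhere with a median of 6827. TraesCS1B02G053600 read 11.0, 9.42 and 10.5 in DEH2 well-watered and 17.5, 0 and 1.88 in DREM drought, against 1648 to 4494 elsewhere with a median of 3746. In both genes replicate 1 of DREM drought was the highest of its group, well above the other 2.

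TraesCS1B02G076300 was lost less completely. It read 385, 377 and 398 in DEH2 well-watered and 224, 196 and 241 in DREM drought, against 2586 to 10989 elsewhere with a median of 4752. That left a ratio of 0.0460 in DEH2 well-watered, and it was 0.0505 in DREM drought, and the 3 libraries of each low group stood close together. At the other extreme TraesCS1B02G084700, the last gene of the stretch, read 0, 0 and 0.956 in DEH2 well-watered and 3.51, 0 and 0 in DREM drought, against 426 to 5840 elsewhere with a median of 1484. Its mean in DEH2 well-watered rests on about 1 read (a ratio of 15060 with a 95% counting interval of 2660 to 603248), so its size is known only as a range. Over the stretch, 60 genes were at 0 in all 6 low libraries and 121 at no more than 3 reads in each of them. Among the 170 lost in both, these counts were 30 and 76.

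What remained of the 170 lost genes was small and alike in 5 of the 6 low libraries. Their summed level was 1.42%, 1.49% and 1.47% of that in the other well-watered groups in DEH2 well-watered replicates 1, 2 and 3. In DREM drought it was 2.39%, 1.46% and 1.68% of that in the other drought groups. Replicate 1 of DREM drought stood apart: 42 of the 170 genes were at 0 there, against 104 and 108 in the other 2 replicates and 101 to 113 in DEH2 well-watered. Without it, 209 genes of the stretch were lost in DREM drought, against 204 with it, so the classes do not rest on it. Reads of the similar copies on 1A, 1B and 1D could have been divided between copies by the authors' quantification, and the part of this in the remaining values was not tested.

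**Figure D2:**
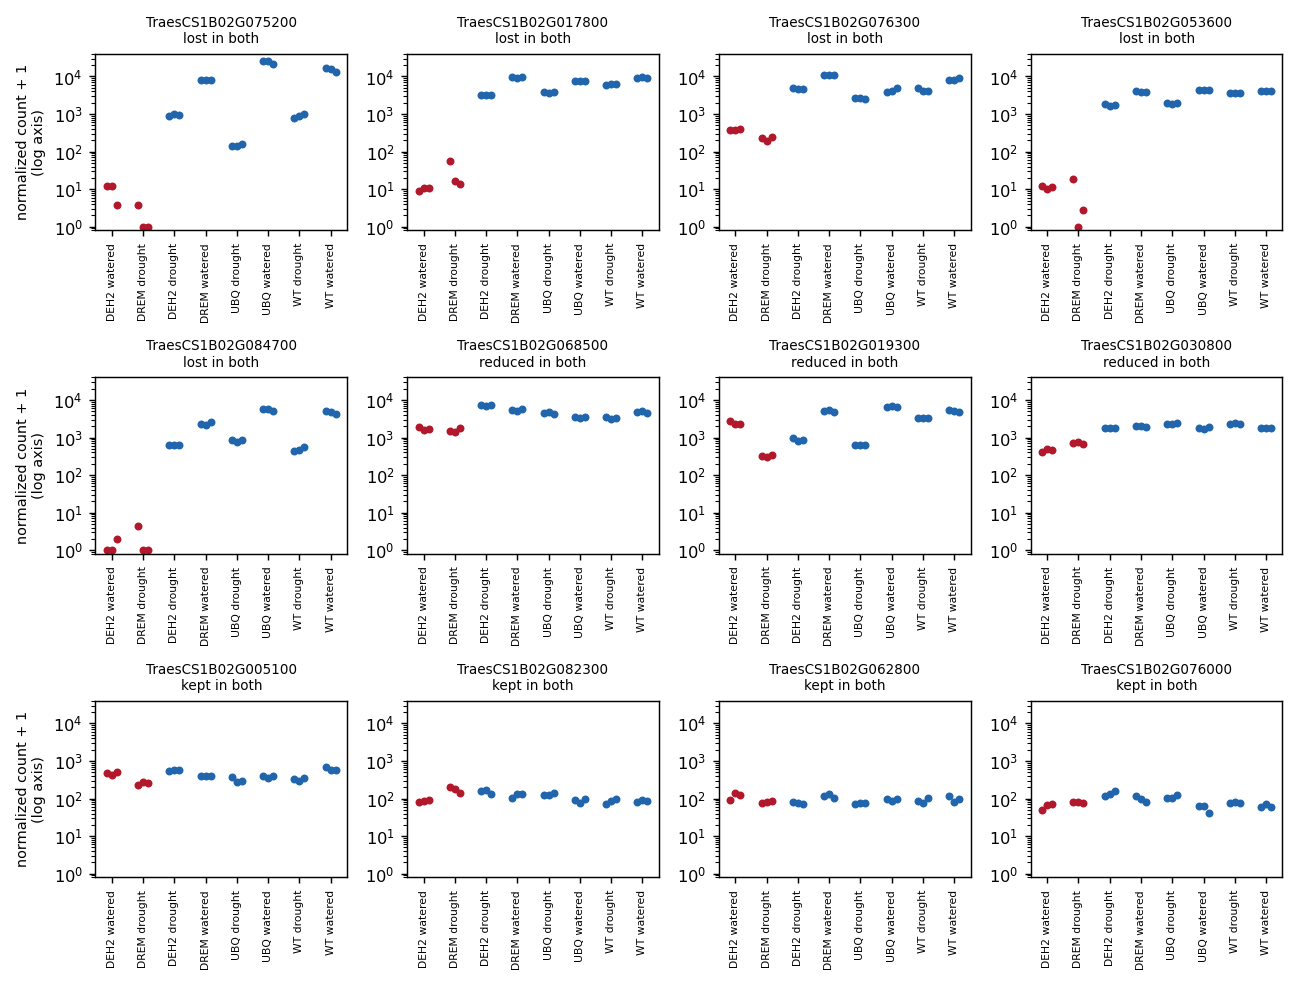
Normalized count plus 1 (log axis) of 12 genes by group, the 5 most highly expressed genes lost in both low groups, the 3 most highly expressed reduced in both and 4 of the 5 most highly expressed kept in both; each point is a library, red for DEH2 well-watered and DREM drought and blue for the other 6 groups. The lost genes sit at least 10-fold below the other groups of their water regime, TraesCS1B02G068500 at 0.364 and 0.353 of them, and the kept genes drawn at 0.730 to 1.33 of them.

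The 33 genes reduced in both were as highly expressed elsewhere as the lost ones, with a median of 139.6 normalized counts, a range of 16.9 to 4768 and 5 genes at 1000 or more. Their ratios had a median of 0.203 in DEH2 well-watered, and it was 0.182 in DREM drought. TraesCS1B02G068500, the highest of them, read 1922, 1593 and 1660 in DEH2 well-watered and 1535, 1440.5 and 1833 in DREM drought, against 3133 to 7462 elsewhere with a median of 4672. The 6 low libraries lay below all 18 others, at a ratio of 0.364 and 0.353. TraesCS1B02G030800 behaved the same way. It read 413, 483 and 476 in DEH2 well-watered and 701, 758 and 652 in DREM drought, against 1715 to 2450 elsewhere with a median of 1938.

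TraesCS1B02G019300 combined a reduction with a wide difference between water regimes. It read 2761, 2290 and 2316 in DEH2 well-watered and 314, 299.8 and 339 in DREM drought. The other drought groups averaged 877 ± 63.8 in DEH2, 622 ± 9.43 in UBQ and 3317 ± 69.8 in WT, and the other well-watered groups 5165 ± 279 in DREM, 6627 ± 104 in UBQ and 5141 ± 266 in WT (SD, n = 3 each). The ratio was 0.475 in DEH2 well-watered, and it was 0.362 in DREM drought, and each low group was below every other library of its own water regime.

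The kept genes were mostly of low expression. The 25 kept in both had a median level of 36.1 normalized counts, a range of 11.5 to 432, 2 genes at 100 or more and none at 1000 or more. TraesCS1B02G005100 was the highest, at 476, 428 and 518 in DEH2 well-watered and 223, 271 and 253 in DREM drought, against 275 to 684 elsewhere with a median of 396. The low-group libraries of this gene fell among the others in DEH2 well-watered, and all 3 of DREM drought lay just below the lowest of the 18. TraesCS1B02G082300 read 82.4, 83.7 and 89.9 in DEH2 well-watered and 197, 184 and 141 in DREM drought, against 71.4 to 165 elsewhere with a median of 101, so that 2 of its DREM drought libraries lay above the highest of the 18. TraesCS1B02G062800 (ratios 1.20 and 1.07), TraesCS1B02G076000 (0.992 and 0.730) and TraesCS1B02G072700 (1.05 and 1.17) had levels of 91.1, 89.9 and 89.5 and overlapped with the other groups.

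The kept genes were scattered among lost ones rather than standing in a block. In order they were TraesCS1B02G001900, TraesCS1B02G002100, TraesCS1B02G005000, TraesCS1B02G005100, TraesCS1B02G012800, TraesCS1B02G027000, TraesCS1B02G029700, TraesCS1B02G033400, TraesCS1B02G034800, TraesCS1B02G039300, TraesCS1B02G039400, TraesCS1B02G044200, TraesCS1B02G053800, TraesCS1B02G055300, TraesCS1B02G062800, TraesCS1B02G063500, TraesCS1B02G066100, TraesCS1B02G067200, TraesCS1B02G071000, TraesCS1B02G072700, TraesCS1B02G076000, TraesCS1B02G076200, TraesCS1B02G081800, TraesCS1B02G082300 and TraesCS1B02G082900. Split by identifier number at 28000 and 56000, the first, middle and last parts held 6, 8 and 11 kept genes, 12, 10 and 11 reduced ones and 42, 58 and 70 lost ones. Over the 256 genes assessed in both, with the others left out, the longest run lost in both was 9, from TraesCS1B02G045000 to TraesCS1B02G046800. Counted the same way, the longest run lost or reduced in both was 31, from TraesCS1B02G013900 to TraesCS1B02G024900.

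**Figure D3:**
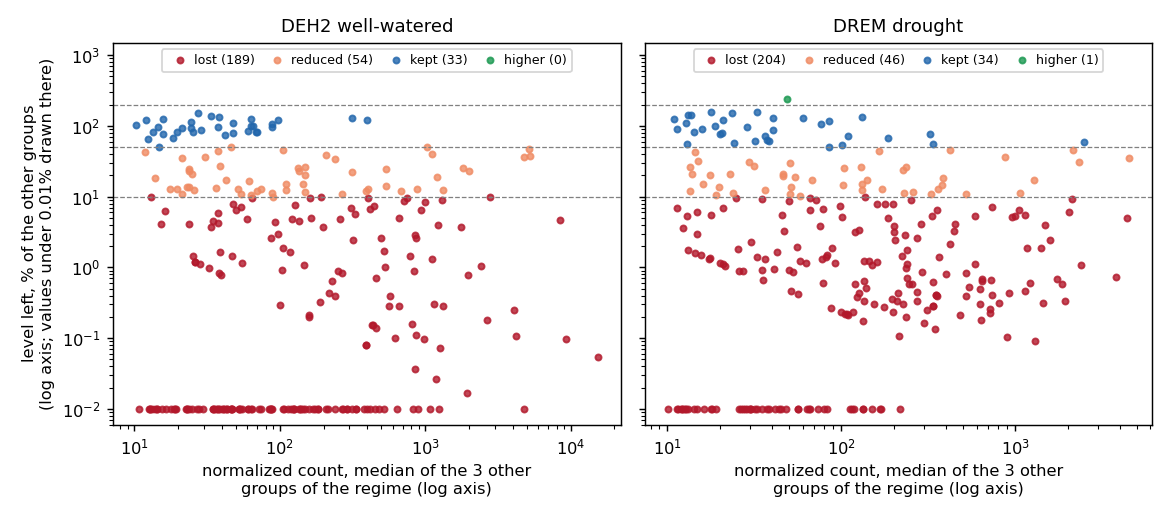
Level left in DEH2 well-watered (left) and DREM drought (right), as percent of the median of the 3 other groups of the same water regime, against that median; both axes are log axes, each point is a gene, and dashed lines mark 10%, 50% and 200%. Lost genes occur at all levels, while the kept genes lie mostly below 100 normalized counts (median level 36.1 for the 25 kept in both).

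The 28 genes assessed in both but classed differently mostly differed by 1 class: 18 were lost in one low group and reduced in the other, and 6 were reduced in DEH2 well-watered and kept in DREM drought. The 2 that were lost in one and kept in the other were TraesCS1B02G007700 and TraesCS1B02G009500. TraesCS1B02G007700 read 36.9, 35.6 and 25.7 in DEH2 well-watered (ratio 0.0733) and 206, 218 and 135 in DREM drought (ratio 0.555), against 254 to 567 elsewhere. Its values in DREM drought were thus also below all 18 others. TraesCS1B02G009500 was a low gene, at 8.05, 6.61 and 7.68 in DEH2 well-watered (ratio 0.502, on the limit of the kept class) and 0.698, 0 and 0 in DREM drought (ratio 0.00900), against 9.31 to 32.0 elsewhere.

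The 1 gene above the others in a low group was TraesCS1B02G064500. It read 119, 113 and 116 in DREM drought, against 39.9, 37.8 and 48.6 in DEH2 drought, 57.2, 38.4 and 51.5 in UBQ drought and 237, 243 and 254 in WT drought. The ratio of 2.36 therefore lies between drought groups that themselves differ, and DREM drought was below WT drought. In DEH2 well-watered it read 388, 392 and 423 and was kept (ratio 1.28).

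Seen along the chromosome, the loss began with the first expressed gene and ended sharply, slightly beyond the last gene of the stretch. TraesCS1B02G000600 was reduced in both, at 473, 445 and 438 in DEH2 well-watered and 245, 203 and 221 in DREM drought, against 965 to 2216 elsewhere. TraesCS1B02G000800 was reduced in DEH2 well-watered, at 189, 162 and 147, and lost in DREM drought, at 74.0, 49.9 and 65.7, against 949 to 1490 elsewhere. At the far end TraesCS1B02G084600 was at 0 in all 6 low libraries and between 92.3 and 207 in the others, at least 59.6-fold lower in DEH2 well-watered and 58.2-fold lower in DREM drought when 3 reads are allowed in each library at 0. Its neighbour TraesCS1B02G084700, described above, was as low.

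Of the next 12 tested genes, TraesCS1B02G084900 to TraesCS1B02G086800, 10 were lost in each low group, with a median ratio of 0.00759 in DEH2 well-watered, and it was 0.00941 in DREM drought. The last were TraesCS1B02G086600, reduced in both (0.214 and 0.180), and TraesCS1B02G086800, lost in both (0.0855 and 0.0518). The next gene that could be assessed, TraesCS1B02G087300, was kept in both (0.921 and 1.12). Among the first 60 tested genes after TraesCS1B02G086800, 52 were kept, 1 was higher and none was lost or reduced in DEH2 well-watered, with 7 not assessed. In DREM drought 50 of these genes were kept, 3 reduced, 3 higher and none lost, with 4 not assessed.

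**Figure D4:**
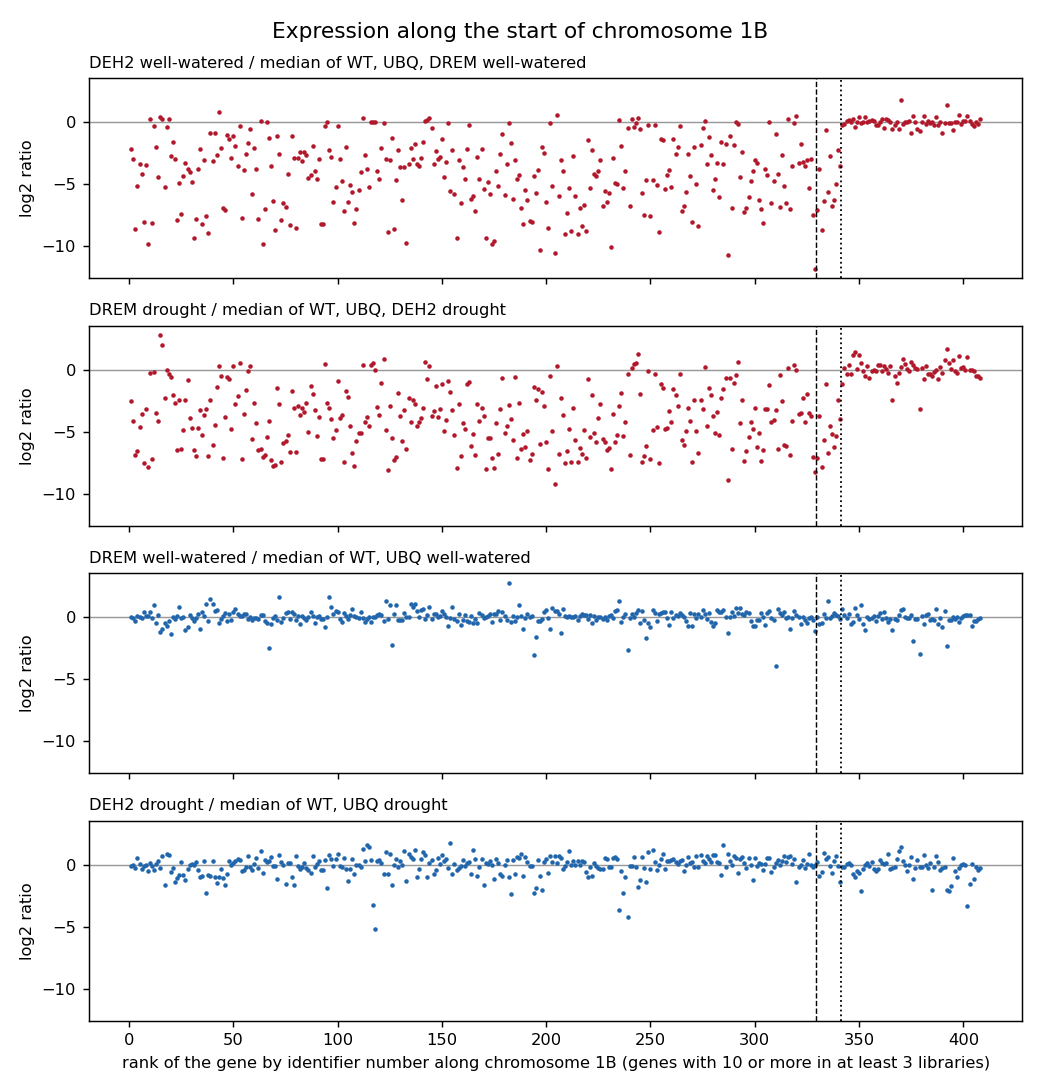
Log2 ratio (1 added to each value) of DEH2 well-watered, DREM drought, DREM well-watered and DEH2 drought to the median of other groups of the same water regime, by rank of the gene along chromosome 1B; each point is a gene, the dashed line ends the 329 genes and the dotted line follows TraesCS1B02G086800. Over the 329 genes the median is -3.81 in DEH2 well-watered, and it was -3.93 in DREM drought, and 0.03 in DREM well-watered and 0.02 in DEH2 drought.

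The same 2 lines showed no such loss in their other water regime. Measured against WT and UBQ of the same regime, the 329 genes had a median log2 ratio of 0.02 in DEH2 drought and 0.03 in DREM well-watered, with quartiles of -0.38 and 0.42 in DEH2 drought and -0.21 and 0.30 in DREM well-watered. Within the libraries labelled DREM, the median log2 difference of drought over well-watered was therefore -4.07, and 279 of the 329 genes were lower under drought by 1 or more and 2 higher by as much. Within those labelled DEH2 it ran the other way, at a median of 4.01, with 279 genes higher by 1 or more and 13 lower. Both follow from the choice of the stretch and carry no test. Among the 25 kept genes the same medians were -0.12 for DREM and 0.11 for DEH2. The kept class was set on the same low groups, so these medians follow from it and carry no test either.

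The starts of chromosomes 1A and 1D were taken by identifiers up to the same number, without pairing genes with their copies on 1B. They kept most of their expression, although lost genes were more frequent there than over all genes. Of their 381 and 401 tested genes, 12 (3.69% of those assessed) and 8 (2.38%) were lost in DEH2 well-watered, and 10 (3%) and 8 (2.32%) in DREM drought; 8 on 1A and 7 on 1D were lost in both. Over all genes the share lost was 0.658% for DEH2 well-watered and 0.864% for DREM drought, and on 1B after TraesCS1B02G086800 it was 0.0494% and 0.145%. The shares over all genes include the stretch itself. It held 189 of the 345 genes lost in DEH2 well-watered and 204 of the 457 lost in DREM drought. Outside the stretch the share lost was thus lower. Kept were 88% of the assessed genes of 1A and 92.9% of 1D in DEH2 well-watered, and 85% and 89% in DREM drought. In limma's test on log2(value + 1), with Benjamini-Hochberg adjustment over all genes, DEH2 differed from WT when well-watered for 94 genes of 1A (26 higher, 68 lower; median log2 difference -0.06) and 112 of 1D (34 higher, 78 lower; -0.09). These are 24.7% and 27.9% of them, against 19.5% of all genes tested (8.98% higher, 10.5% lower). DREM differed from WT under drought for 238 genes of 1A (102 higher, 136 lower; median -0.06) and 236 of 1D (108 higher, 128 lower; -0.05), or 62.5% and 58.9%, against 58.9% of all genes (28.6% higher, 30.3% lower). With every library scaled to a common sum, the second pair of splits turned to 166 higher and 80 lower on 1A and 196 higher and 73 lower on 1D. In the deposited scaling the median differences on 1A and 1D were close to 0 where the start of 1B was low. With common sums the median over all genes was 0.45 for DREM against WT under drought. That comparison also sets libraries that differ on 2A against each other. In WT drought replicate 1 the start of 1A held 6.95% of the library sum, against 0.693% and 0.642% in replicates 2 and 3. Without WT drought replicate 1, 211 genes of 1A and 212 of 1D differed in DREM from WT under drought.

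The drought response of the stretch could be tested in the libraries labelled WT and UBQ, whose groups did not enter the choice of the stretch as low ones. The chromosome 2A values given above separate drought from well-watered within both labels, so each of these comparisons also sets libraries that differ on 2A against each other. In UBQ 184 of the 329 genes (55.9%) passed an adjusted p of 0.05, with 93 higher and 91 lower under drought, against 72.8% of all genes tested (37.2% higher, 35.6% lower). In WT 130 (39.5%) passed, with 55 higher and 75 lower, against 61.4% (30.2% higher, 31.2% lower), and 107 without WT drought replicate 1. The median log2 change of the genes was 0.04 in UBQ and -0.06 in WT, close to the medians over all genes of 0.03 in UBQ and -0.01 in WT.

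In these counts the 2 low groups share the estimate of the spread. The median residual SD of the 329 genes was 0.386 on the log2 scale in the fit of 24 libraries and 0.256 in a fit of the 18 libraries of the other 6 groups, against 0.197 and 0.193 over all genes. In the fit of 18 libraries, added after the data were seen, 221 genes passed in UBQ (112 higher, 109 lower; 67.2%) and 176 in WT (77 higher, 99 lower; 53.5%). Over all genes that fit called 72.9% in UBQ (37.2% higher, 35.7% lower) and 61.7% in WT (30.4% higher, 31.3% lower). The split by direction also depends on scaling. With every library scaled to a common sum, the median change of all genes was 0.58 in UBQ and 0.16 in WT, and the calls became 143 higher and 56 lower in UBQ and 64 higher and 48 lower in WT.

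The genes named next have the largest changes among those past the threshold whose libraries did not overlap and whose higher group averaged 50 or more; larger changes of genes below that level are not ranked. TraesCS1B02G018100 had the largest rise under drought in both labels. In UBQ it read 648, 700.4 and 604 under drought and 0, 1.15 and 1.22 when well-watered, a ratio of 824 with a 95% counting interval of 222 to 6915 on about 2 reads (limma adjusted p = 2.96e-18). It read 79.6, 67.1 and 78.7 in WT drought and 0 in all 3 libraries of WT well-watered, at least 16.8-fold higher with 3 reads allowed in each library at 0 (adjusted p = 2.25e-14). The gene was nearly silent in every well-watered library, including those of DREM and DEH2, all at 0. Among drought groups it was classed as lost in DREM, at 18.4, 4.19 and 4.68, against 433, 394 and 433 in DEH2 drought.

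The other largest rises in WT within these limits were those of TraesCS1B02G080600, TraesCS1B02G018900 and TraesCS1B02G066000. TraesCS1B02G080600 read 45.5, 67.5 and 70.0 under drought and 2.89, 0 and 0 when well-watered, a ratio of 63.3 with a counting interval of 17.1 to 535 on about 2 reads (adjusted p = 5.66e-12). TraesCS1B02G018900 read 65.2, 48.4 and 58.4 under drought and 5.85, 9.15 and 14.4 when well-watered, a log2 change of 2.50 ± 0.35 (SE; adjusted p = 2.01e-07). TraesCS1B02G066000 read 547, 495 and 460.1 under drought and 107, 90.5 and 94.1 when well-watered, a change of 2.35 ± 0.55 (adjusted p = 0.00120). In all 3 genes the drought libraries lay above every well-watered library of WT.

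The largest falls in WT within the same limits were those of TraesCS1B02G084000, TraesCS1B02G042200, TraesCS1B02G075200 and TraesCS1B02G027000. TraesCS1B02G084000 read 2.75, 5.92 and 2.05 under drought and 151, 132 and 165 when well-watered, a log2 change of -5.13 ± 0.45 (adjusted p = 1.83e-11). TraesCS1B02G042200 read 9.28, 1.98 and 2.06 under drought and 112, 69.4 and 64.0 when well-watered, a change of -4.14 ± 0.50 (adjusted p = 1.57e-08). These genes dropped to a few reads in WT drought, while the next stayed well expressed. TraesCS1B02G075200, the most highly expressed gene of the stretch, read 774, 907 and 1020.4 under drought and 16603, 15927 and 13493 when well-watered, a change of -4.09 ± 0.43 (adjusted p = 2.18e-07). TraesCS1B02G027000, 1 of the 25 kept genes, read 11.1, 10.8 and 3.06 under drought and 82.5, 119.9 and 102 when well-watered, a change of -3.60 ± 0.35 (adjusted p = 1.55e-10). As a kept gene it can also be followed in the low groups: it read 47.3, 57.6 and 63.3 in DEH2 well-watered and 16.0, 30.3 and 12.2 in DREM drought.

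In UBQ the other largest rises within these limits were in genes hardly read when well-watered. TraesCS1B02G061800 read 371, 386 and 335 under drought and 0 in all 3 well-watered libraries, at least 98.8-fold higher (adjusted p = 8.01e-15). TraesCS1B02G035100 read 61.7, 80.7 and 67.6 in UBQ drought and 0 in all 3 libraries of UBQ well-watered, at least 19.0-fold higher. It was at 0 in each of the other 18 libraries of WT, DREM and DEH2 as well, so it passed the filter on low values only through UBQ drought, which fixes this difference, and no test is given. Of the 329 genes, 10 passed only through UBQ drought, 4 only through UBQ well-watered, 5 only through WT drought and none only through WT well-watered; these are in the counts of calls. TraesCS1B02G017300 read 114, 109 and 144 under drought and 5.05, 3.50 and 6.25 when well-watered, a log2 change of 4.39 ± 0.57 (adjusted p = 3.24e-08).

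The largest falls in UBQ within these limits included TraesCS1B02G075200 again, at 139.7, 141 and 154 under drought and 25108, 25972 and 21381 when well-watered, a log2 change of -7.37 ± 0.43 (adjusted p = 3.94e-11). TraesCS1B02G052800 read 0.770, 9.23 and 6.35 under drought and 1275, 1299 and 1137 when well-watered, a change of -7.92 ± 0.36 (adjusted p = 3.00e-16). These were the 2 falls from high expression. TraesCS1B02G080800 read 0, 0.937 and 1.44 under drought and 136, 151 and 152 when well-watered, a ratio of 184 with a counting interval of 62.5 to 827 on about 3 reads (adjusted p = 3.40e-14). TraesCS1B02G042100 was at 0 in all 3 drought libraries and at 62.1, 57.2 and 44.0 when well-watered, at least 23.2-fold lower (adjusted p = 2.74e-12). Drought and well-watered libraries of UBQ did not overlap for any of these genes.

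The drought effects of the labels UBQ and WT, which share no library, were partly in the same direction. Of the 329 genes, 34 were higher under drought in both and 50 lower in both. Another 10 went in opposite directions, 126 passed in 1 label only and 109 in neither. The shares higher in both, lower in both and opposite were 10.3%, 15.2% and 3.04%, against 21.5%, 21.6% and 7.47% of all genes tested. Of all 60088 genes tested, 19899 passed in 1 label only and 9807 in neither. The genes higher in both were 36.6% of those higher in UBQ and 61.8% of those higher in WT, and the genes lower in both 54.9% of those lower in UBQ and 66.7% of those lower in WT. Over all genes tested the same 4 shares were 57.7%, 71.2%, 60.6% and 69.3%. All these shares come from the fit of 24 libraries, where the median residual SD of the 329 genes was 0.386, against 0.256 in the fit of 18. In the fit of 18 libraries 47 were higher in both, 67 lower in both and 20 opposite. Shares over all genes were not computed for that fit. Whether the stretch shares fewer drought responses than other genes was therefore not tested.

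The test of the difference itself, UBQ minus WT, was passed by 110 of the 329 genes (33.4%; 56 positive, 54 negative; median difference 0.05), against 51.7% of all genes (24.9% positive, 26.8% negative). In the fit of 18 libraries 160 passed (48.6%, against 52.1%). Scaling to a common sum moved the split to 85 positive and 30 negative, with a median over all genes of 0.36. Among the genes named above, 3 differed by 4 or more, besides TraesCS1B02G035100. TraesCS1B02G052800 differed by -5.47 (adjusted p = 1.33e-09), with 280.3, 235 and 200.5 in WT drought and 1304, 1299 and 1271 in WT well-watered. TraesCS1B02G061800 differed by 4.35 (adjusted p = 2.70e-05), at 38.4, 15.7 and 20.4 in WT drought and 0, 0 and 1.44 in WT well-watered. Its well-watered libraries were at or near 0 in both labels, so the size of 4.35 depends on the 1 added to each value. TraesCS1B02G080600 differed by -4.02 (adjusted p = 2.47e-06), at 71.7, 56.4 and 69.7 in UBQ drought and 33.6, 22.0 and 25.9 in UBQ well-watered. The drought levels of this gene were thus alike in both labels, and the well-watered ones apart.

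**Figure D5:**
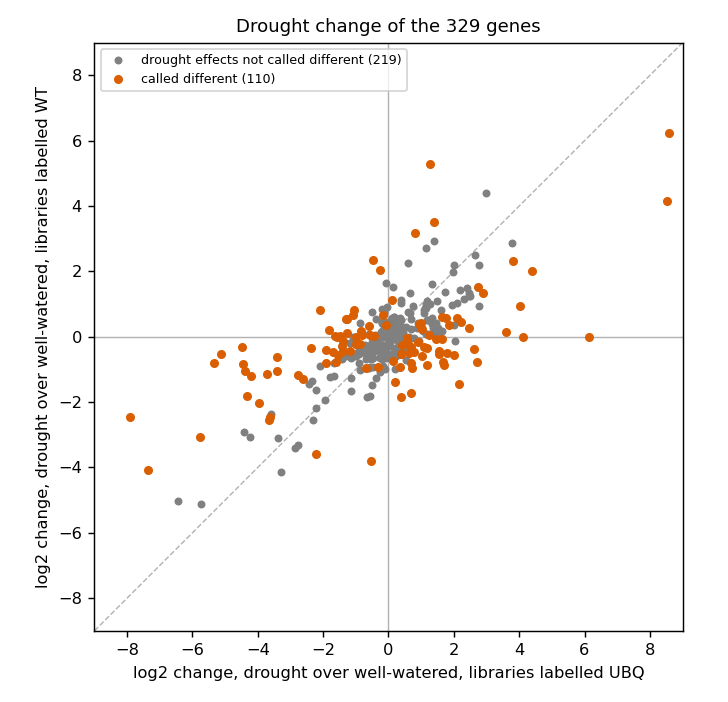
Log2 change (1 added to each value) of drought over well-watered in the libraries labelled UBQ (x axis) and WT (y axis); each point is 1 of the 329 genes, orange where limma called the 2 changes different (110 genes), and the dashed line marks equal change. Both changes were under 1 in size for 160 of the genes, and TraesCS1B02G018100 lies at the upper right (8.59 in UBQ, 6.25 in WT).

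Genes lost in the low groups responded to drought elsewhere in both directions. Over all genes tested, 37.2% were higher and 35.6% lower under drought in UBQ, and 30.2% higher and 31.2% lower in WT. Of the 170 lost in both, 42 were higher and 46 lower under drought in UBQ, and 23 higher and 35 lower in WT; in the fit of 18 libraries these counts were 61, 64, 43 and 56, where the shares of all genes were 37.2%, 35.7%, 30.4% and 31.3%. Of the 33 reduced in both, 10 were higher and 10 lower in UBQ, and 6 higher and 11 lower in WT. Of the 25 kept in both, 5 were higher and 8 lower in UBQ, and 1 higher and 7 lower in WT. Their median log2 change was -0.15 in UBQ and -0.43 in WT, and that of the 170 lost genes 0.05 in UBQ and -0.05 in WT. The kept genes are few and of low level, and the difference between the classes was not tested.

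Between lines of the same water regime the share of genes that differed was lower in the stretch than over all genes, and close to it without the 2 low groups in the fit. All of these comparisons but DREM against WT well-watered also set libraries that differ on 2A against each other. When well-watered, 51 genes (15.5%; 18 higher, 33 lower) differed in UBQ from WT, against 31.1% of all genes (15.2% higher, 15.9% lower). In DREM 30 (9.12%; 16 higher, 14 lower) differed from WT, against 21.3% (9.66% higher, 11.7% lower). Under drought 141 (42.9%; 61 higher, 80 lower) differed in UBQ from WT, against 60.9% (30.6% higher, 30.3% lower). In DEH2 140 (42.6%; 67 higher, 73 lower) differed from WT, against 58% (28.3% higher, 29.7% lower). In the fit of 18 libraries the 4 counts were 97, 60, 195 and 181, or 29.5%, 18.2%, 59.3% and 55% of the genes, against 31.8%, 22.2%, 61.1% and 58.3% of all genes. The comparisons within a regime share the libraries of WT. Besides the genes given above for UBQ and WT, 2 passed the filter only through DREM well-watered and 4 only through DEH2 drought. For such genes the filter fixes the difference, and they are in these counts. With a common sum the split became 19 higher and 6 lower for DREM well-watered, 94 and 54 for UBQ drought and 94 and 46 for DEH2 drought, where the medians of all genes were 0.13, 0.34 and 0.26.

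Within the same limits of no overlap and 50 or more in the higher group, the well-watered genes furthest above WT in UBQ were TraesCS1B02G052500 and TraesCS1B02G080800. TraesCS1B02G052500 read 116, 84.1 and 82.8 in UBQ and 19.1, 16.9 and 21.7 in WT, a log2 difference of 2.23 ± 0.51 (adjusted p = 0.00100). TraesCS1B02G080800 read 136, 151 and 152 in UBQ and 30.6, 27.3 and 37.2 in WT (2.18 ± 0.45, adjusted p = 0.000314), and within these limits it was also the furthest above WT in DREM, at 114, 112 and 117 (1.83 ± 0.45, adjusted p = 0.00319). Furthest below WT in UBQ, again within them, was TraesCS1B02G042200, at 12.5, 10.6 and 13.6 against 112, 69.4 and 64.0 in WT (-2.61 ± 0.50, adjusted p = 0.000130). TraesCS1B02G008500 followed, at 79.7, 50 and 89.0 in UBQ and 368, 413 and 300.2 in WT (-2.32 ± 0.29, adjusted p = 1.29e-07). None of these libraries overlapped between the lines compared.

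The other genes within these limits for DREM against WT when well-watered had smaller differences than those named for UBQ. TraesCS1B02G002100 read 132, 110.0 and 172 in DREM and 63.2, 73.6 and 72.3 in WT, a log2 difference of 0.95 ± 0.24 (adjusted p = 0.00410). TraesCS1B02G004100 read 294, 306 and 353 in DREM and 655, 724 and 684 in WT (-1.12 ± 0.19, adjusted p = 3.69e-05). TraesCS1B02G027000 read 32.7, 45.7 and 67.7 in DREM and 82.5, 119.9 and 102 in WT (-1.09 ± 0.35, adjusted p = 0.0242). The call of the last gene was lost with common sums and without DREM well-watered replicate 1 or 2 or WT well-watered replicate 2 or 3, with an adjusted p of up to 0.146.

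Under drought TraesCS1B02G017300 was far above WT in both lines tested, at 114, 109 and 144 in UBQ and 126, 134 and 162 in DEH2, against 4.10, 6.90 and 9.21 in WT. The log2 differences were 4.04 ± 0.57 in UBQ (adjusted p = 2.62e-07) and 4.24 ± 0.57 in DEH2 (adjusted p = 1.18e-07). TraesCS1B02G011400 was below WT in both, at 1.58, 4.85 and 0.813 in UBQ (-4.81 ± 0.35, adjusted p = 1.58e-13) and 15.0, 12.9 and 11.4 in DEH2 (-2.59 ± 0.35, adjusted p = 1.32e-07), against 85.0, 74.9 and 91.7 in WT. As the WT libraries are shared, these pairs of values are not independent of each other. TraesCS1B02G035100, which passed the filter only through UBQ drought, was at least 20.6-fold higher in UBQ than in WT, where all 3 libraries were at 0. TraesCS1B02G052800 was lower in UBQ by a log2 difference of -5.54 ± 0.36 (adjusted p = 9.35e-13). In DEH2 TraesCS1B02G018100 was higher than in WT by 2.47 ± 0.42 (adjusted p = 6.83e-06), with the values given above. TraesCS1B02G008800 read 14.5, 3.07 and 5.98 in DEH2 drought and 74.5, 74.9 and 87.9 in WT drought (-3.39 ± 0.54, adjusted p = 3.87e-06).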

How the data were processed

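The deposited values are normalized counts per gene, a signal that the authors scaled between libraries; CASAVA, Trimmomatic, STAR, Salmon and DESeq2 are named, without versions, in the submitters' processing notes, while genome build and annotation were not given in the sources used here. They do not come out as whole reads, so a count model was not used. In R 4.3.3, limma 3.58.1 (trend, robust prior) was fitted to log2(value + 1) of 60088 genes with 10 or more in at least 3 libraries, all 8 groups in 1 fit, two-sided, with Benjamini-Hochberg adjusted p under 0.05; such fold changes understate low genes. The step was tried on simulated data with changes planted in WT drought. The simulation had no lowered stretch, so it does not cover the effect of the 2 low groups on the spread. The value of 1 read was taken from genes detected in 1 library. Genes were named by rule: the highest lost, reduced, kept and discordant genes, the first and last 2, and the largest non-overlapping changes, with 50 or more in the higher group, per comparison (4 each way for drought, 2 for lines). TraesCS1B02G064500, the run ends and the genes after TraesCS1B02G084700 were chosen after their values were seen. The stretch, its genes and the lists were chosen with earlier results of these data known. Alternatives were other pseudocounts, filters, scalings, priors, class limits and left-out libraries. Figures were drawn with matplotlib 3.10.9.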

Additional observations from a re-analysis of the deposited data

Results flagged for a closer look

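The drought effect of 10 named genes differed between the libraries labelled UBQ and WT. For all of them but TraesCS1B02G035100 this rests on limma's test of the difference. On the log2 scale, UBQ minus WT, the drought effect differed by 6.14 for TraesCS1B02G035100, 4.35 for TraesCS1B02G061800, 2.38 for TraesCS1B02G017300, 2.35 for TraesCS1B02G018100 and 1.38 for TraesCS1B02G027000. It was lower in UBQ for TraesCS1B02G052800 (-5.47), TraesCS1B02G080600 (-4.02), TraesCS1B02G075200 (-3.27), TraesCS1B02G066000 (-2.83) and TraesCS1B02G042100 (-2.70). TraesCS1B02G035100 was at 0 outside UBQ drought and passed the filter on low values only there, so its difference is fixed by the filter and is no test. The adjusted p of the others ran up to 0.0200, for TraesCS1B02G027000. Some genes were at or near 0 in a group, such as TraesCS1B02G061800 and TraesCS1B02G018100 when well-watered. For these the size of the difference depends on the 1 added to each value. For TraesCS1B02G066000 the signs were opposite. UBQ read 243, 223 and 244 under drought and 355, 350.2 and 286 when well-watered, while WT was higher under drought. The fall in UBQ was not called in the fit of 24 libraries and was called in that of 18.

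The median log2 drought change of the 329 genes was -4.07 in the libraries labelled DREM and 4.01 in those labelled DEH2. This difference was not tested, since the genes were chosen for it.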

How the results depend on the processing

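Of the results that answer a comparison, 166 values under alternatives stayed within 1.5 times the main one and 6 moved further, all in the well-watered line comparisons. UBQ against WT gave 51 genes, and 80 with a pseudocount of 5, 88 with only the groups compared and 97 with the 18 libraries; DREM against WT gave 30, and 46, 67 and 60. Of the values of named genes, 507 stayed on the same side of the threshold in the same direction, none reversed, and 5 lost their call, all of TraesCS1B02G027000 in DREM against WT well-watered. Leaving out 1 library gave 168 to 177 genes for drought in UBQ, 103 to 112 in WT, 94 to 105 for their difference, 40 to 51 and 20 to 24 for UBQ and DREM against WT well-watered, and 123 to 129 and 122 to 132 for UBQ and DEH2 against WT under drought. It gave 187 to 193 genes lost in DEH2 well-watered and 203 to 209 lost in DREM drought. For DEH2 against WT well-watered it gave 80 to 91 genes on 1A and 87 to 100 on 1D, and for DREM against WT under drought 211 to 229 and 212 to 226. The replicate numbers do not pair the libraries: deviations of same-numbered libraries correlated at -0.05 to 0.04 in the 8 pairs of groups compared, and at -0.06 to 0.12 in all 28 pairs. A replicate block gave 181, 127 and 106 genes for drought in UBQ, WT and their difference, 53 and 27 for the well-watered and 143 and 141 for the drought line comparisons. Ending the stretch at TraesCS1B02G086800 gave 199 genes lost in DEH2 well-watered and 214 lost in DREM drought.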

Other observations

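Over all chromosomes 269 genes were lost in both DEH2 well-watered and DREM drought by the same limits, and 181 of them lay on 1B. The next most were on 7A, with 21, and on 4A, with 11. Of the 21 on 7A, 20 had identifiers up to TraesCS7A02G067700, 8.85% of the 226 genes assessed in both there, against 0.0468% of 2136 later on that chromosome. Of the 11 on 4A, 10 had identifiers from TraesCS4A02G430200 on, 5.88% of 170, against 0.0489% of 2047 before. These limits were set at the genes themselves after their values were seen, so the shares are a description, with no test. In both places most neighbours were not lost, unlike on 1B.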
